A study of Mus musculus with 4 samples.

Results

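The Id genes (Id1, Id2, Id3 and Id4, the inhibitors of differentiation) were described from ATAC-seq of cultured mouse neurospheres, as every region of the deposited count table whose nearest gene was one of the 4. This gave 13 of the 29121 regions in the table: 1 for Id1, 5 for Id2, 5 for Id3 and 2 for Id4. ATAC-seq reads where the transposase Tn5 can insert into chromatin, so the number of tags in a region measures how open, or accessible, it was. The neurospheres were floating clusters of neural progenitor cells, grown for 7 days in FGF2 (20 ng/ml) and EGF (20 ng/ml) from the hippocampus of C57BL/6 mice at P0. The genotype of both groups included hGFAPCre+, a Cre recombinase driven by the human GFAP promoter, which is active in neural progenitors. The 2 control libraries carried an intact Fgf13 gene (Fgf13+/y), and the 2 Fgf13cko libraries a floxed one (Fgf13flox/y), Fgf13 being an X-linked member of the fibroblast growth factor family that stays inside the cell. Cells of 1 mouse were spread over a pair of culture wells. Nothing in the labels ties the libraries of 1 group to different animals, and the p-values measure only the spread between these libraries, which may be technical.

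Id proteins are helix-loop-helix proteins that lack the basic, DNA-binding stretch of the bHLH transcription factors. They bind the E-proteins (Tcf3, Tcf4 and Tcf12) and so keep them from pairing with proneural factors such as the Neurogenins, which holds neural stem cells in an undifferentiated, dividing state. Id1, Id2 and Id3 are classical direct targets of BMP signalling through Smad1, Smad5 and the common partner Smad4. Id4 is found in neural precursors and in adult hippocampal stem cells, where it favours quiescence.

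The promoters that could be matched in RefSeq (GRCm38.p6) were those of Id2, Id3 and Id4, and they are shown because each window lay wholly inside a region whose tags are given further on. Each run is the 250 bases before the start site, 5′ to 3′ on the gene's own strand, with the CCAAT box (CCAAT, or ATTGG on the other strand) and the palindrome GGCGCC, a BMP-responsive Smad-binding motif, in capitals. The Id2 window was chr12:25096093-25096342 on the minus strand, the Id3 window chr4:136143572-136143821 on the plus strand, and the Id4 window chr13:48260866-48261115 on the plus strand.
Id2: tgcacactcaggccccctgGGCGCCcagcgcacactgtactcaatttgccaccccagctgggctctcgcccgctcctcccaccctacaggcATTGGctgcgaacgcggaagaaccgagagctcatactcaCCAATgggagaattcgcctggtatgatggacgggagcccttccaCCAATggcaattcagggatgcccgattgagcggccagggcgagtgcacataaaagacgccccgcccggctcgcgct
Id3: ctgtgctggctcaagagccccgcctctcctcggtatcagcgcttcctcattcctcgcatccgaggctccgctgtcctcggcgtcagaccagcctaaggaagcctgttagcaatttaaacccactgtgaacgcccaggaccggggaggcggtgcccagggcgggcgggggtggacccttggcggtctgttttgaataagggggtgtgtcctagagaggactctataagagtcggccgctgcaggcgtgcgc
Id4: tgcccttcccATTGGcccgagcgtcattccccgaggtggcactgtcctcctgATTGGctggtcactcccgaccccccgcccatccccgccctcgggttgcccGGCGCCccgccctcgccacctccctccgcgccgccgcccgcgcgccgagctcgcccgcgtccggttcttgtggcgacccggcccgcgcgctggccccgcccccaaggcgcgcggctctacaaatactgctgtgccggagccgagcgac
The Id2 window held 3 CCAAT boxes, the Id4 window 2 and the Id3 window 0, counted on both strands. CCAAT was present in 33.8% of 32851 promoter windows of the same length, and 3 or more copies in 2.79%. GGCGCC stood 1 time each in the Id2 and Id4 windows and 0 times in that of Id3, and 9.59% of all windows held it. GGGCGG, the GC box, occurred 1, 2 and 5 times in Id2, Id3 and Id4 (32.7% of all windows held it), and the E-box CANNTG 1, 0 and 0 times (66.2% of all windows). The TATA box TATAAA, read strictly, was in none of the 3 windows and in 12.4% of all windows. The G and C content was 62.8% in the Id2 and Id3 windows and 75.6% in that of Id4, against a median of 52.4%. These are matches of letters and not measured binding sites.

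The tag totals were 24.9 and 26.0 M in the control libraries and 16.8 and 13.1 M in the Fgf13cko libraries. Mitochondrial DNA took 23.4% and 27.0% of all tags in the controls but 9.54% and 9.19% in Fgf13cko, so the tags in nuclear regions were closer, between 2.55 and 3.25 M per library. The Id regions held 11.5 to 405 tags each. Counts were scaled by TMM, the trimmed mean that centres most regions on no change. With the tags in all tested regions, the 2 mitochondrial ones included, as the only scaling (called region totals alone from here on), the median log2 change of all tested regions moved from -0.00 to 0.97. The targeted gene gave no check of the labels: its 4 regions had log2 changes of -0.53 to 0.83, none passed (edgeR adjusted p of 0.0848 to 0.960), and which exon is flanked by loxP sites is not stated in the labels. All 8 neural progenitor markers examined (Sox2, Sox1, Nes, Pax6, Fabp7, Prom1, Slc1a3 and Vim) had a promoter region in the table, against 2 of 8 endothelial and 1 of 7 microglial ones, which is how the labelled cell type was checked. The same held for 4 of 6 neuronal, 4 of 6 astrocyte, 3 of 6 oligodendrocyte lineage and 3 of 7 meningeal fibroblast markers. The check therefore cannot exclude cells of those types. There were 11796 promoter regions in all, so having one does not by itself mark a cell type.

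By the group means, 12 of the 13 Id regions were less accessible in Fgf13cko than in control under TMM. Under region totals alone 0 of 13 had a negative log2 change, and 12 of 13 lay below the median of all regions. In all, 3 Id regions passed the threshold (edgeR quasi-likelihood test, Benjamini-Hochberg adjusted p of at most 0.05 over the 28801 regions tested): the Id2 promoter and a region 33.4 kb upstream of Id4 fell, and a region 39.0 kb upstream of Id3 rose. Over all tested regions 6.2% rose and 1.64% fell. All 13 Id regions passed the filter on low counts, and the 10 that did not pass the test had adjusted p of 0.118 to 0.860. The median log2 change of the 13 was -0.38, against -0.00 over all regions, and 50.1% of all regions had a lower mean in Fgf13cko. The direction of both Id falls refers to the centre of all regions and turns under region totals alone. Under TMM without the mitochondrial regions, 12 Id regions lay below 0 and 3 passed in edgeR. The log2 change was then -0.78 at the Id2 promoter and -0.96 at the region upstream of Id4. In bulk cultures, fewer cells with an open region and less opening per cell cannot be told apart.

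**Figure D1:**
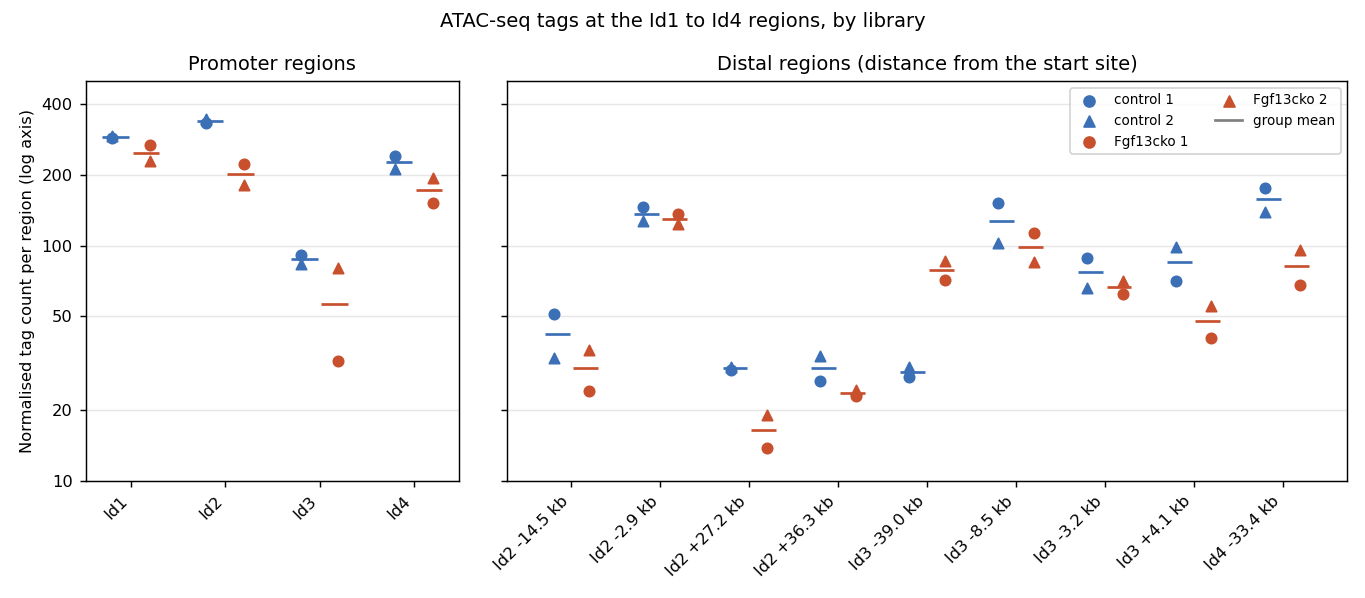
Normalised tag count (TMM, log axis) of the 13 Id regions in each of the 4 libraries, promoter regions on the left and distal ones, named by distance from the start site, on the right; bars are the group means of 2 libraries. The Id2 promoter sits at 333 and 345 in the controls against 223 and 180 in Fgf13cko, and the region 39.0 kb upstream of Id3 is the 1 region where both Fgf13cko libraries lie above both controls.

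At the promoters, defined as regions reaching within 1 kb of the start site, 1 of 4 fell and 0 rose. Over all 11712 promoter regions tested, 0.76% fell and 1.42% rose. All 4 Id promoters had both Fgf13cko libraries below both controls, which 29.3% of all promoter regions did. Their median log2 change was -0.50, against -0.06 over all promoter regions, of which 57.6% had a lower mean in Fgf13cko. With unadjusted p under 0.05, edgeR gave 1 fall and 0 rises among the 4, and DESeq2's Wald test and limma-voom each called the same numbers at their adjusted threshold.

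Id2, which restrains E-protein activity in progenitor and immune cells and is known for binding the retinoblastoma protein, had the most open of the 4 promoters per length. The Id2 promoter region (chr12:25095771-25096664, mm10, 894 bp) held 333 and 345 normalised tags in the control libraries and 223 and 180 in Fgf13cko. The groups did not overlap, and the control libraries lay closer to each other than the Fgf13cko ones. The means were 339 ± 8.08 and 201 ± 29.9 (SD, n = 2 each), 59.5% of the control level, a log2 change of -0.75 (SE 0.19, edgeR adjusted p = 0.0493). Per kb of region the level was 379 tags in the controls and 225 in Fgf13cko, the 96.9th and 89.7th percentiles of all promoter regions in the respective group. This call lay at the threshold: the adjusted p was 0.0548 with DESeq2's size factors in edgeR, 0.0692 with the replicate number as a block, 0.402 without control 1 and 0.480 without control 2, with log2 changes of -0.73 to -0.78 in these fits. DESeq2's Wald test kept the call (adjusted p = 0.029).

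Id3, a close relative of Id1 that is induced with it by BMPs, had the promoter whose Fgf13cko libraries lay farthest apart. Its region (chr4:136143475-136144046, 572 bp) held 91.7 and 83.4 normalised tags in the controls, and 32.3 and 80.6 in Fgf13cko 1 and 2. By tags, Fgf13cko 1 was far below the other 3 libraries, and Fgf13cko 2 lay just under control 2. The authors' fold enrichment of this peak over local background had another order. It was highest for Fgf13cko 1 (3.94), followed by control 1 (3.62), Fgf13cko 2 (3.44) and control 2 (3.16). The log2 change was -0.62 (SE 0.37, adjusted p = 0.369, edgeR) and rested on Fgf13cko 1: it was -0.14 without that library and -1.44 without Fgf13cko 2. Such a fit keeps 1 Fgf13cko library and takes its spread from the controls alone, so only the size of the change is given.

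Id4, whose protein can also oppose the other Id proteins, had a promoter region of 2140 bp (chr13:48260595-48262734) that the table annotates to exon 1 of 3. It held 240.5 and 211 normalised tags in the controls and 152 and 193 in Fgf13cko, so that the groups were separate but near each other. The log2 change was -0.38 (SE 0.20, edgeR adjusted p = 0.296). When 1 library was left out it ran from -0.25 without Fgf13cko 1 to -0.57 without Fgf13cko 2.

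Id1, a common readout of BMP signalling, had 1 region, its promoter (chr2:152735009-152736637, 1629 bp), and no distal region. The controls held 288 and 293 tags, and the Fgf13cko libraries 268 and 228. The groups did not overlap, yet Fgf13cko 1 was nearer to the controls than to Fgf13cko 2. The means were 291 ± 4.05 and 248 ± 27.9 (SD, n = 2 each), with a log2 change of -0.23 (SE 0.18, edgeR adjusted p = 0.516). It was -0.38 without Fgf13cko 1 and -0.13 without Fgf13cko 2, and did not pass in either fit.

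**Figure D2:**
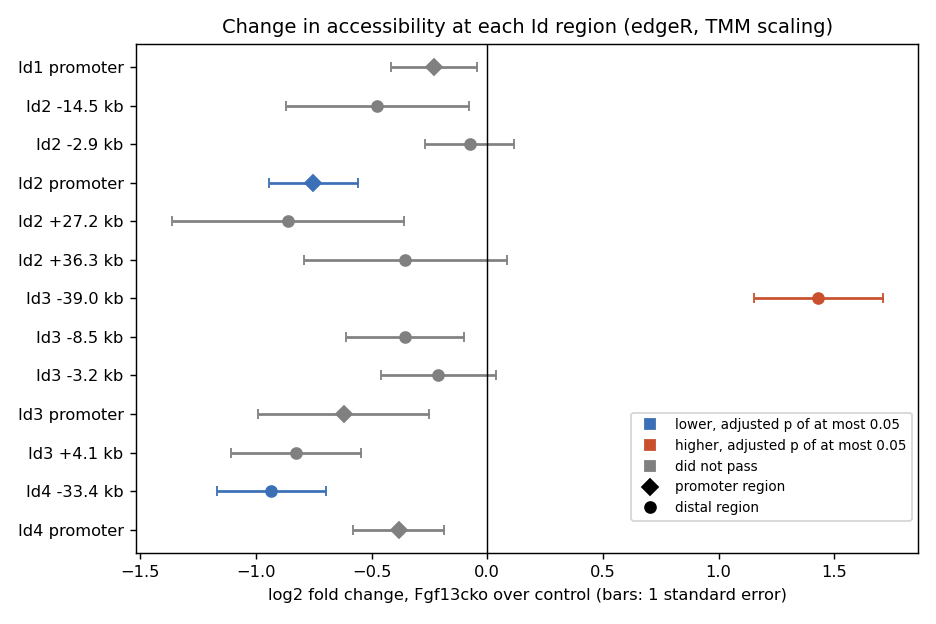
The log2 fold change of Fgf13cko over control for each Id region under TMM scaling, with 1 standard error to each side; colour marks the 3 regions that passed and shape separates promoter from distal regions. The 12 negative values run from -0.93 to -0.08 and the positive one is 1.43; under region totals alone all 13 are positive.

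Among the 9 distal regions, 1 rose and 1 fell. Over the 17081 distal regions tested, 9.48% rose and 2.22% fell. Both Fgf13cko libraries lay below both controls at 4 of the 9 (22.4% of all distal regions did so) and above both at 1 (34.7% of all did so). The mean was lower in Fgf13cko at 8 of 9, against 44.9% of all distal regions, and the median log2 change was -0.36, against 0.09. Of the 9, 4 are annotated to a CpG island, a class that makes up 3.62% of all distal regions. Of the 618 distal regions in CpG islands, 2.10% rose and 1.29% fell, compared with 9.76% and 2.26% of the other distal regions, and their median log2 change was -0.08.

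The largest level change in tags per kb at a distal Id region was upstream of Id4. The region at chr13:48227753-48228383 (631 bp, mm10) lies 33.4 kb upstream of the start site given in the table, in a CpG island within an intron of the long noncoding RNA gene A330033J07Rik, which RefSeq places at chr13:48044231-48262623, overlapping the Id4 start. Its normalised tags were 175 and 139 in the controls, compared with 68.0 and 95.5 in Fgf13cko. The groups did not overlap, and the libraries within each group differed by less than the groups' means did. The means were 157 ± 26.0 and 81.8 ± 19.4 (SD, n = 2 each), 52.1% of control, a log2 change of -0.93 (SE 0.23, edgeR adjusted p = 0.0467). Per kb of region this was 249 tags against 130, the 98.0th percentile of distal regions in the controls and the 82.7th in Fgf13cko. The call was lost with DESeq2's Wald test (adjusted p = 0.0709), without control 1 (0.390) and without control 2 (0.147), and it was kept with the replicate number as a block (0.0158).

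The rise was upstream of Id3. The intergenic region at chr4:136104433-136105236, 39.0 kb from the start site, held 27.6 and 30.6 normalised tags in the controls and 71.5 and 85.9 in Fgf13cko, from raw counts of 28, 35.5, 61.5 and 81. Both Fgf13cko libraries were well above both controls. The means were 29.1 ± 2.14 and 78.7 ± 10.2 (SD, n = 2 each), a log2 change of 1.43 (SE 0.28, edgeR adjusted p = 0.0182). Per kb the region went from the 11.9th to the 71.0th percentile of distal regions. The direction was the same under every scaling, region totals alone included (2.41), and the region passed in every fit with all 4 libraries (largest adjusted p 0.0476, DESeq2's Wald test), but not without control 1 (0.172) or control 2 (0.148).

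**Figure D3:**
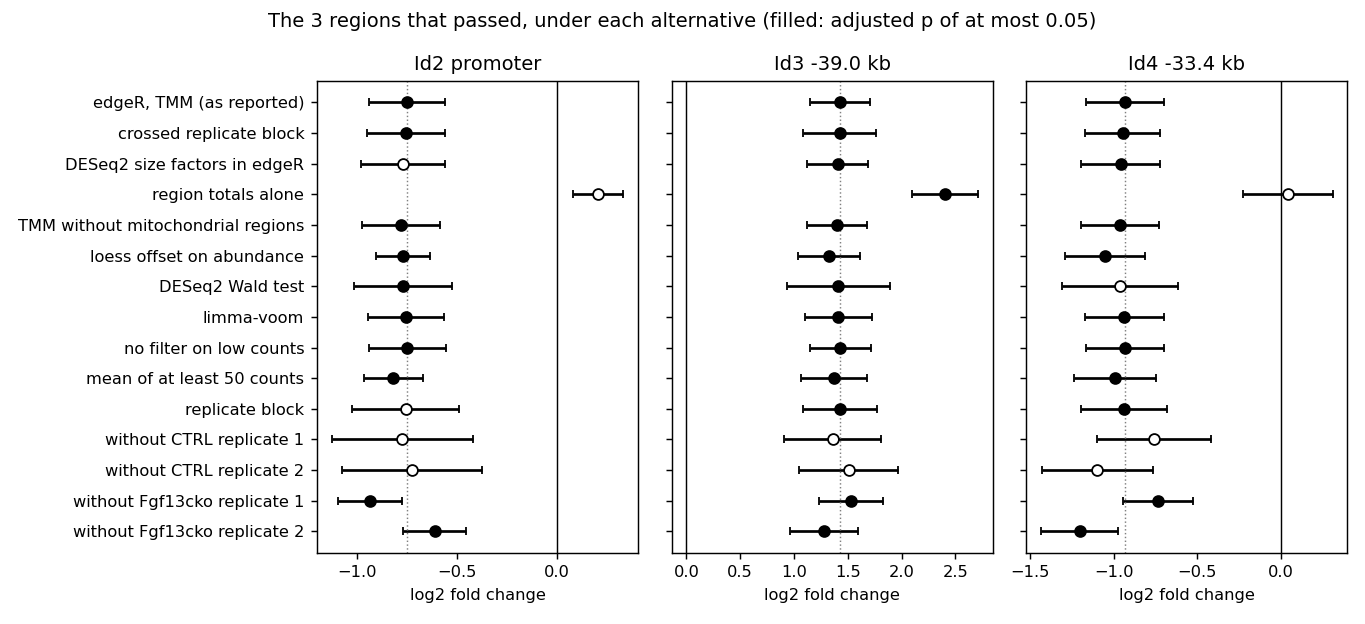
The log2 fold change (with 1 standard error) of the 3 regions that passed, as reported and under each alternative fit, with filled points where the adjusted p was at most 0.05. The Id3 upstream region stays between 1.28 and 1.53 except under region totals alone (2.41), where the Id2 promoter (0.21) and the Id4 upstream region (0.04) turn above 0; all 3 calls are lost without either control library.

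The other 3 distal regions of Id3 had lower means in Fgf13cko and did not pass. The CpG island region 4.1 kb downstream of the start (chr4:136147553-136148261), past the end of the gene, came nearest, with 71.0 and 98.7 normalised tags in the controls but 40.4 and 55.2 in Fgf13cko. The groups did not overlap, and the log2 change was -0.83 (SE 0.28, edgeR adjusted p = 0.118). When 1 library was left out, the log2 change ran from -1.09 without Fgf13cko 2 to -0.57 without control 2. The region 8.5 kb upstream, also in a CpG island, held 152 and 102 tags in the controls and 113 and 84.9 in Fgf13cko (log2 change -0.36, edgeR adjusted p = 0.461), so the groups overlapped. Its log2 change ran from -0.05 without control 1 to -0.62 without control 2, and it was -0.59 without Fgf13cko 1. The region 3.2 kb upstream held 88.7 and 66.4 against 62.3 and 71.1 (-0.21, edgeR adjusted p = 0.674), again with overlap.

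None of the 4 distal regions of Id2 passed, and 0 of the 4 had an unadjusted edgeR p under 0.05. The CpG island region 2.9 kb upstream (chr12:25098551-25099488) was the most open per kb, with 146 and 128 normalised tags in the controls and 136 and 123 in Fgf13cko. Both groups overlapped, and the log2 change was -0.08 (SE 0.19, edgeR adjusted p = 0.860), beside the -0.75 at the promoter close by. A region 27.2 kb downstream, in a LINE L1 repeat, held 29.6 and 30.6 tags in the controls but 13.8 and 19.1 in Fgf13cko (log2 change -0.86, SE 0.50, edgeR adjusted p = 0.358). At these low counts the size was not distinguishable from 0. The regions 14.5 kb upstream (-0.47) and 36.3 kb downstream (-0.35), the latter at the end of the neighbouring gene Kidins220, had standard errors of 0.40 and 0.44 and edgeR adjusted p of 0.536 and 0.693.

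Summing the distal tags of each gene within 100 kb gave 1 value per gene. For Id2 (4 regions) the control sums were 258 and 237 and the Fgf13cko sums 204 and 181, and for Id3 (4 regions) 345 and 313 against 297 and 265. Both pairs of groups were separate, and neither difference passed in the fit on gene sums (log2 change -0.37, edgeR adjusted p = 0.226 for Id2 and -0.23, adjusted p = 0.436 for Id3). Without Fgf13cko 1 the log2 change of the Id2 sum was -0.45. That of the Id3 sum ran from -0.14 without Fgf13cko 2 to -0.53 with 20 kb as the limit, without passing. In the Id3 sum the rise at 39.0 kb and the lower values of the other 3 regions were added together. The Id4 sum was its single distal region, and it fell here too (log2 change -1.05, SE 0.22, edgeR adjusted p = 0.0198), a call lost without control 1 (0.202) or control 2 (0.0530). With the distal tag totals as the only scaling the median of all sums moved from -0.01 to -0.12, and the Id4 value was -1.16. Over the 7675 genes tested, 3.54% of distal sums fell and 7.07% rose.

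Around the Id genes, 18 further regions lay within 100 kb of a start site and were nearest to another gene. Of these, 2 rose and 0 fell by edgeR, with 4 rises and 1 fall at an unadjusted p under 0.05. DESeq2 and limma-voom each called 2 rises and 0 falls. Over all tested regions 6.2% rose and 1.64% fell. Values below 0 were found at 13 of the 18, and the median was -0.28, against 50.1% with a lower mean and a median of -0.00 over all regions. One of the 2 rises called by edgeR was 48.8 kb upstream of Id3, in a region nearest to Rpl11, a ribosomal protein gene. It held 39.4 and 27.2 normalised tags in the controls and 90.0 and 84.9 in Fgf13cko (log2 change 1.40, edgeR adjusted p = 0.0202), so the 2 neighbouring regions 39.0 and 48.8 kb upstream of Id3 both rose. The other was 63.3 kb downstream of Id4, nearest to A330048O09Rik, with 55.2 and 59.5 tags in the controls and 129 and 127 in Fgf13cko (1.16, edgeR adjusted p = 0.0131). Both were higher in each Fgf13cko library than in either control.

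**Figure D4:**
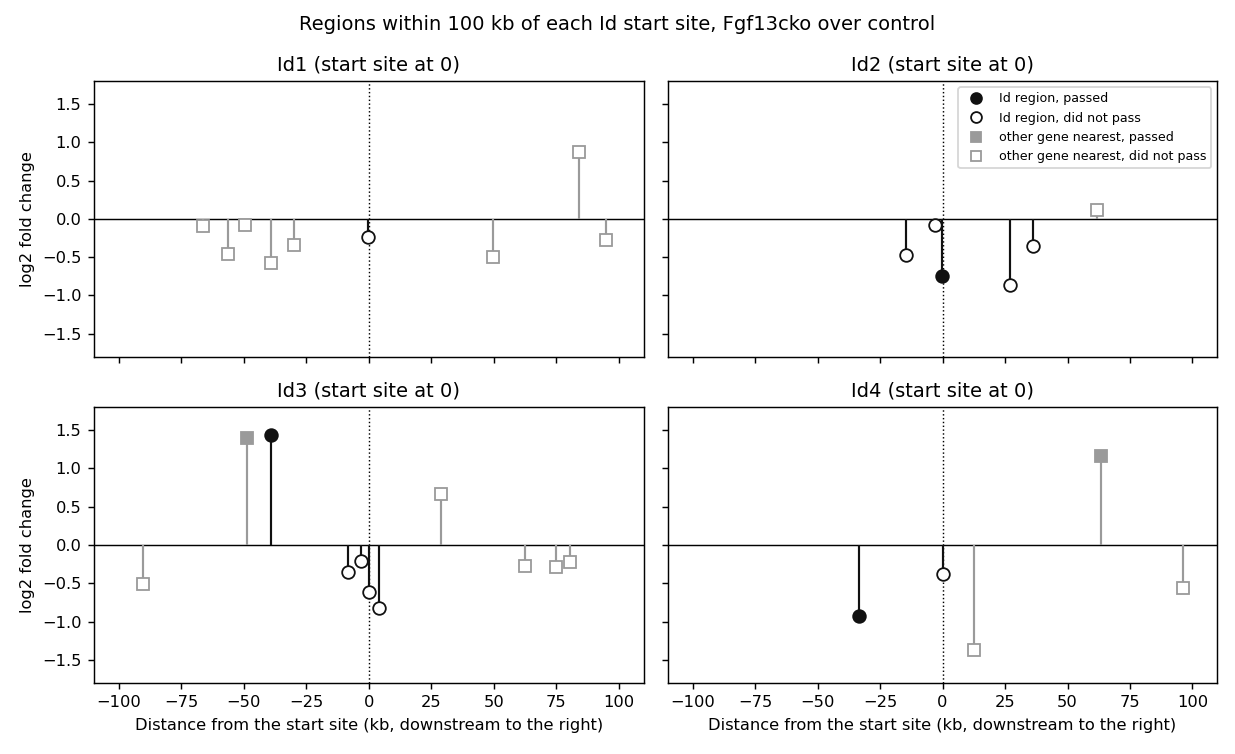
The log2 fold change (TMM) of every tested region within 100 kb of each Id start site against its distance in kb; circles are Id regions, squares regions nearest to another gene, and filled symbols passed. The filled symbols above 0 are the pair 39.0 and 48.8 kb upstream of Id3 and the one 63.3 kb downstream of Id4. All other Id regions lie below 0. Open squares above 0 are 84 kb downstream of Id1 (0.88), 61.7 kb downstream of Id2 (0.12) and 28.8 kb downstream of Id3 (0.67). Under region totals alone the median of all regions is 0.97 higher.

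The count table holds only regions with a peak in all 4 libraries, so the authors' peak lists were read for sites it leaves out. Within 100 kb of the 4 start sites the lists merged into 62 sites. Of these, 31 had a peak in every library (50%, against 36.4% of the sites of the genome), and these were the 31 in the table. Peaks in both Fgf13cko libraries and in neither control marked 6 sites (9.68%, against 12.3% of the 80077 sites of the genome): 3 at Id3 (33.1 and 26.6 kb upstream and 19.9 kb downstream), 2 at Id2 (28.6 and 81.8 kb upstream) and 1 at Id1 (57.9 kb upstream). Peaks in both controls only marked 2 (3.23%, against 1.77%), 3.1 kb downstream of Id1 and 5.0 kb upstream of Id2. A further 15 sites had a peak in 1 library (24.2%, against 31.9% of the sites of the genome). The lists of the Fgf13cko libraries were longer in all, with 64954 and 54373 peaks against 38006 and 47148. In the authors' own fold enrichment over local background, the Id4 upstream peak was among the strongest of its lists. Its percentiles were 96.7 and 93.1 (controls), then 92.8 and 89.7 (Fgf13cko). Both Fgf13cko values were below both control values there, at the Id1 and Id2 promoters, 8.5 kb upstream of Id3 and 27.2 kb downstream of Id2. Both were above at the Id3 rise, and also 2.9 kb upstream and 36.3 kb downstream of Id2, where mean tags were lower. Fgf13cko 1 was highest at the Id3 promoter and 3.2 kb upstream of Id3. At the other Id peaks the groups overlapped.

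The partners and targets of the Id proteins were read from lists, beside 6.2% of all tested regions that rose and 1.64% that fell. Of the 20 regions of Tcf3, Tcf4 and Tcf12 (median log2 change 0.29), the E-proteins that the Id proteins bind, 0 passed in edgeR, DESeq2 or limma-voom, and 3 had an unadjusted edgeR p under 0.05, each with a higher mean in Fgf13cko. The smallest p was at a region 37.7 kb downstream of the Tcf4 start, with 61.1 and 61.3 normalised tags in the controls and 178 and 88.0 in Fgf13cko (log2 change 1.11, edgeR adjusted p = 0.0732). A Tcf12 region followed (0.70, adjusted p = 0.220). Of 38 regions of the proneural and lineage bHLH factors (median 0.19), 4 rose and 1 fell. The rises included 1 region of Olig2 and 2 regions of Olig1, bHLH factors that specify oligodendrocytes. The Olig2 region 2.9 kb upstream went from 135 ± 2.07 to 299 ± 30.2 tags (SD, n = 2 each; log2 change 1.14, edgeR adjusted p = 0.00948). The larger Olig1 change, 35.3 kb downstream, was from 268 ± 6.43 to 510 ± 104 (0.93, edgeR adjusted p = 0.0312), and the fall was at a region 492.9 kb upstream of Atoh1, a proneural factor of the cerebellum (-1.46, edgeR adjusted p = 0.0310; -0.51 under region totals alone). DESeq2's Wald test and limma-voom each called 4 rises and 0 falls in this list.

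For the BMP pathway, which acts upstream of the Id genes, the share of regions that rose was near that of all regions. Of those, 6.2% rose and 1.64% fell. Among the ligands and extracellular antagonists, 2 of 31 regions rose and 1 fell. The rises were at Bmper, an extracellular modulator of BMPs (log2 change 1.42, edgeR adjusted p = 0.00862), and at Bmp7, a ligand (1.56, edgeR adjusted p = 0.00961), where a second region 183.6 kb from the start fell (-1.45, edgeR adjusted p = 0.0131; -0.47 under region totals alone). Among receptors, Smads and intracellular inhibitors, 3 of 46 rose and 2 fell. The rises were distal, at the receptor gene Bmpr1b (26.0 ± 8.92 to 120 ± 4.75 tags, log2 change 2.19, edgeR adjusted p = 0.00480), at Smad5, a transducer of BMP signals (2.14, edgeR adjusted p = 0.00531), and at Smad7, an inhibitory Smad (1.07, edgeR adjusted p = 0.0241). Both falls were at promoters: that of Smad6, the inhibitory Smad of the BMP branch, held 120 and 126 tags in the controls but 68.0 and 56.2 in Fgf13cko (log2 change -0.99, edgeR adjusted p = 0.0267; -0.03 under region totals alone), and that of the type II receptor gene Acvr2b, named after its values were seen, had a log2 change of -0.95 (edgeR adjusted p = 0.0294; 0.03 under region totals alone). DESeq2's Wald test called 2 rises and 0 falls in this second list, and limma-voom 3 and 2. In the first list the Wald test called 2 rises and 1 fall, and limma-voom 3 and 1. The median log2 change was 0.04 for the first BMP list and -0.11 for the second.

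None of the 16 regions of the Hes and Hey repressors (median log2 change 0.02), bHLH factors downstream of Notch, passed in edgeR, DESeq2 or limma-voom, and 1 had an unadjusted edgeR p under 0.05, 90.5 kb from Hes1 (31.5 and 32.3 tags in the controls, 63.4 and 59.4 in Fgf13cko, edgeR adjusted p = 0.0894). Cyclin-dependent kinase inhibitors and the Ets activators that Id proteins can restrain gave 3 rises and 0 falls in 23 regions (median 0.04). Among all tested regions 6.2% rose and 1.64% fell, and among distal ones, where these rises lay, 9.48% and 2.22%. At an unadjusted edgeR p under 0.05 there were 5 rises and 2 falls. DESeq2's Wald test and limma-voom each called 2 rises and 0 falls there. The edgeR rises were at 2 regions of Ets1 (the smaller p: log2 change 1.42, edgeR adjusted p = 0.0149) and 1 region 159 kb from Cdkn2b, which encodes the cell cycle inhibitor p15 (1.03, edgeR adjusted p = 0.0177). The 6 regions of the other bHLH repressors (Bhlhe40, Bhlhe41 and Msc; median -0.09) gave 0 calls in edgeR, DESeq2 and limma-voom and 0 unadjusted p under 0.05.

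Markers of other cell types stood beside these values as follows. Promoter regions were in the table for 4 of 6 neuronal markers, with summed normalised tags of 393 and 423 (controls) and 668 and 648 (Fgf13cko) (Dcx and Rbfox3 had none). They were in it for 4 of 6 astrocyte markers, with 398 and 483 against 557 and 412 (Gfap and Aqp4 had none), and for 3 of 6 markers of the oligodendrocyte lineage, with 237 and 276 against 231 and 202 (Cspg4, Sox10 and Mbp had none). Of the endothelial markers 2 of 8 had one (Kdr and Flt1), with sums of 141 to 148 in the controls and 114 to 161 in Fgf13cko. Meningeal fibroblasts were represented by 3 of 7 markers, with 192 and 181 against 212 and 161, and microglia by 1 of 7, P2ry12, with 39.4 and 27.2 against 11.5 and 21.2. By region in edgeR, 3 of 28 rose for neural progenitor markers, 3 of 19 for neuronal, 1 of 16 for endothelial and 1 of 16 for astrocyte markers. Falls were 1 of 16 for astrocyte and 1 of 15 for oligodendrocyte lineage markers. Of all tested regions, 6.2% rose and 1.64% fell. DESeq2's Wald test and limma-voom called 5 and 6 rises for neural progenitor, 2 and 3 for neuronal and 0 and 1 for endothelial markers. They each called 1 rise and 1 fall for astrocyte markers, and 0 and 1 falls for the oligodendrocyte lineage. For fibroblasts (10 regions) and microglia (4 regions) edgeR called 0, with 1 unadjusted p under 0.05 each, and DESeq2 and limma-voom called 0. The neuronal sum was higher in both Fgf13cko libraries than in both controls, and the oligodendrocyte lineage sum and P2ry12 were lower in both. Their part in the Id results was not tested. The share of mitochondrial tags also separated the groups, and its part was not tested either.

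The promoters whose normalised tags over the 4 libraries were most like those of an Id gene were found by the smallest Euclidean distance of log2(tags + 0.5) among 10935 promoter regions of named genes. For Id2 they were Ugp2 (distance 0.158), which encodes an enzyme of glycogen synthesis, Kdm1b (0.175), a histone demethylase gene, and Pdk4 (0.181), a regulator of pyruvate use. Ugp2 held 327 and 362 tags in the controls and 205 and 190 in Fgf13cko (log2 change -0.80, edgeR adjusted p = 0.0328). For Id1 they were Ahsa2 (0.0543), Rcl1 (0.0760) and Pnpla8 (0.0866). For Id3 they were Fyttd1 (0.127), Cdca8 (0.160) and Mark2 (0.205), all with the low value in Fgf13cko 1 seen at Id3 (32.3, 32.3 and 34.6 tags). For Id4 they were Lars (0.142), Timm13 (0.146) and Yy1 (0.157). None of the 12 was another Id gene. All were picked by these same values, so their likeness, the low Fgf13cko 1 value included, is no separate result.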

How the data were processed

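ATAC-seq libraries of 2 control and 2 Fgf13cko cultures were grouped by their titles. The authors deposited a table of estimated counts, which per the file headers holds raw HOMER tags per merged region on mm10, in steps of 0.5. They also deposited a peak list per library with a fold enrichment (a ratio), a score, and the -log10 of p and q, as the columns of the deposited lists are ordered. HOMER, MACS2, Bowtie2, Picard and DESeq2 are named in the submitters' processing notes; for versions, duplicate handling and the Tn5 shift, the sources used here give nothing. Every merged region has a peak in all 4 libraries. PCR duplicates that remain would make tags less independent.

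Counts were rounded and fitted with edgeR 4.0.16 in R 4.3.3 (TMM, filterByExpr, glmQLFit with robust estimation, glmQLFTest, two-sided, Benjamini-Hochberg adjustment over 28801 regions, threshold 0.05). The steps were run on simulated counts with known changes, the same spread for all regions and no mitochondrial difference between the groups. That run checks the steps themselves and not these results. Normalised tags are counts per effective library size, rescaled to the mean library. With 2 libraries a side an exact permutation test cannot go below p = 0.333. Distal tags within 100 kb were summed per gene and fitted alike. Alternatives were other scalings, filters, DESeq2 1.42.0, limma 3.58.1, a replicate block, leaving out each library, and 20 kb as the distal limit. Distances are those of the table for Id regions and for the genes of the lists. For the neighbouring regions and the peak sites they are from the RefSeq start. The Id members, the gene lists and the rule for named genes (up to 4 called regions with the smallest p per list, 1 per gene, or the 2 genes of smallest p where none was called, and the 3 most alike promoters per member) were chosen with earlier results of these data known. One further region that the rule selects is not reported here.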

Additional observations from a re-analysis of the deposited data

How the results depend on the processing

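With region totals as the only scaling, 17704 regions passed in place of 2258, 5 Id regions in place of 3, and 0 Id regions lay below 0 in place of 12. The log2 changes then turned above 0 at the promoters of Id1 (0.73), Id2 (0.21), Id3 (0.38) and Id4 (0.59), at the Id2 regions 14.5 kb (0.50) and 2.9 kb (0.88) upstream and 27.2 kb (0.11) and 36.3 kb (0.61) downstream, at the Id3 regions 8.5 kb (0.59) and 3.2 kb (0.76) upstream and 4.1 kb (0.15) downstream, and at the Id4 region 33.4 kb upstream (0.042). Relative to the median of all regions, 12 of 13 stayed below. A loess offset on abundance called 3415 regions. Leaving out each library gave 224 to 10086 regions called, 0 to 6 Id regions, 191 to 3422 distal sums against 815, and 0 to 2 Id sums against 1; 1 library a group then borrows the spread of the other group. The range was -0.17 to 0.021 for the Id2 region 2.9 kb upstream and -0.41 to 0.0072 for the Id3 region 3.2 kb upstream. With 20 kb as the limit, 365 distal sums and 0 Id sums passed, and 19 peak sites (10 in the table) stood in place of 62 (31). The causes were not tested.

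Same-numbered replicates did not deviate together (r = -0.24 over 28801 regions, 2 pairs). With so few pairs, this cannot tell whether same-numbered cultures were handled together. The replicate block called 2808 regions, and the Id2 promoter had a log2 change of -0.76 (edgeR adjusted p = 0.0692). A crossed pairing, chosen after seeing the data, called 3817 regions and 3 Id regions. Low tag numbers limit the Id2 regions 27.2 and 36.3 kb downstream most.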
